A study of Mus musculus with 6 samples.

Results

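Epithelial cells of the colon are joined to their neighbours by tight junctions, adherens junctions and desmosomes, and 37 genes of these structures were described here among 19936 genes measured. They were chosen by name as 10 claudins, 6 further tight junction membrane proteins, 8 tight junction scaffolds and polarity proteins, 7 genes of the cadherin-catenin system and the adherens junction, and 6 desmosome genes. All 37 were measured, each by the only probe set that named that gene alone. Pvrl2 is given under its present symbol, Nectin2.

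Colon epithelium came from male mice on the C57BL/6J background at an age of 8 weeks. Of the 6 arrays, 3 were from wild type mice and 3 from mice that lacked Sel1l in the intestinal epithelium (Sel1L-delta-IEC). In the knockout, Cre recombinase driven by the villin-1 promoter, which is active in intestinal epithelial cells, cut out the floxed exon 6 of the gene. The floxed allele came from the Sel1ltm1e(KOMP)Wtsi line after its lacZ-neo cassette was deleted with FLPe, and the Cre transgene had been backcrossed to C57BL/6J. Whether wild type mice carried floxed alleles or Cre is not said in the labels. Sel1L works with the ubiquitin ligase Hrd1 in endoplasmic reticulum (ER)-associated degradation, and the series asks about the ER stress sensor IRE1α as a substrate of that pathway. Levels are RMA values on a log2 scale, and differences are knockout minus wild type on that scale, with limma's moderated standard error (SE) and p-values adjusted over all genes.

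Tight junctions seal the space between cells near their apical side. Their strands are built from claudins, some of which close the space while others, such as claudin-2 and claudin-15, form channels for cations and water. Cytoplasmic scaffolds such as ZO-1 tie the strands to actin. Below them, E-cadherin binds its counterpart on the next cell and holds actin through the catenins, and desmosomes anchor the keratin filaments. Most junction proteins that span the membrane are made in the ER.

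The tissue and the deletion were checked first. Sel1l read 8.81 ± 0.22 on the knockout arrays against 9.55 ± 0.11 on the wild type arrays (SD, n = 3 each), a difference of -0.74 ± 0.11 (adjusted p = 0.018). The adjusted p was 0.055 and 0.0766 without wild type array 1 or 2 respectively, and 0.0875 and 0.0604 with knockout array 1 or 3 left out, so the call ended in these 4 fits. Which exons the Sel1l probe set covers was not examined here. All 10 markers of colon epithelium had mean levels above 6.67, the median of the gene means, among them Krt8, Lgals4, Car1 and Muc2. Markers of other cells were low: 1 of 10 endothelial markers, 2 of 6 fibroblast markers, none of 6 smooth muscle markers and 1 of 7 leukocyte markers reached that median. Limma called 0 of the markers in these 5 lists at an adjusted p under 0.05, and 2 epithelial markers had an unadjusted p under 0.05, Slc26a3 and Cdx2. Fewer cells of a type and less RNA per cell cannot be told apart in these bulk samples. Correlations between arrays over probe sets ran from 0.990 to 0.994.

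No junction gene passed the test. Of the 37, limma called 0 at an adjusted p under 0.05, against 1.63% of all genes and 2.88% of the brighter ones, those at or above the median level, where 33 of the members lie. An unadjusted p under 0.05 was found for 9 members, against 13.3% of all genes and 18.2% of the brighter ones. Of those 9, 8 were lower in the knockout (21.6% of the members, against 5.62% of all genes and 8.83% of the brighter ones) and 1 was higher (2.70%, against 7.72% and 9.37%). Differences were small, from -0.30 for Magi3 to 0.18 for Cldn4. With 1 array left out in turn, the difference of 22 members moved by more than 1.5 times in at least 1 fit. None of these was among the 9. Those 9 were picked in the same arrays for a large difference relative to its SE, so this follows largely from their selection. With an intensity trend and a robust prior in the variance model, 4 members passed, Cdh1, Epcam, Magi3 and Cdh17, as did 3.19% of all genes. When the dimmest 50% of genes were left out, 3 passed, Cdh1, Epcam and Magi3, as did 6.0% of the remaining genes.

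The members lay to the low side of the genes as a whole. The difference was negative for 28 of 37 members (75.7%), against 42.8% of all genes and 48.9% of the brighter ones. After quantile normalization it was negative for 28 members and 49.3% of all genes. The median difference of the members was -0.081 (-0.050 without knockout array 1), against 0.0185 for all genes and 0.0028 for the brighter genes. In 13 members (35.1%) every knockout array read below every wild type array, against 7.98% of all genes and 12.7% of the brighter ones. In 3 members (8.11%) every knockout array read above, against 11.4% and 13.9%. These are descriptions of a list chosen with earlier results of these data known, and no test was made over the list.

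**Figure D1:**
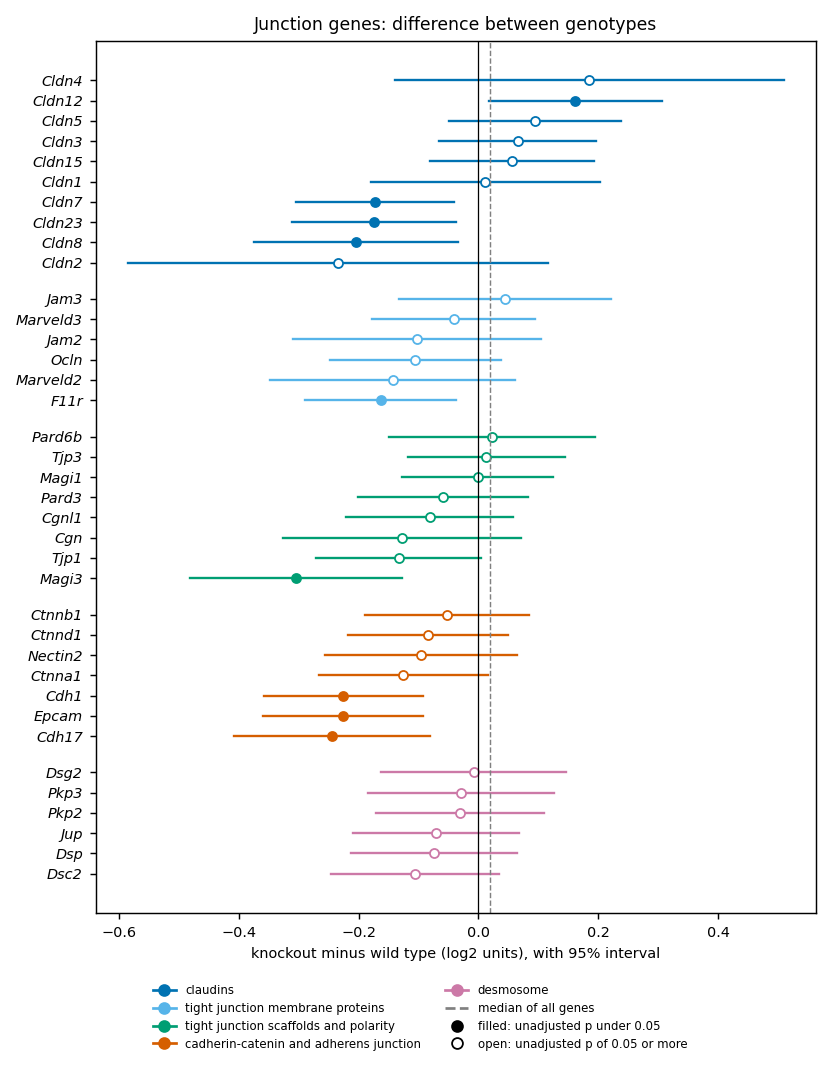
Difference between knockout and wild type for each of the 37 junction genes, in log2 units on the x axis, with 95% intervals from limma and genes grouped by class. Filled points mark the 9 genes with an unadjusted p under 0.05, and the dashed line is the median of all genes at 0.0185. All 7 genes of the cadherin-catenin and adherens junction class and all 6 desmosome genes lie left of 0. So do 42.8% of all genes and 48.9% of the brighter ones. Dsg2 differed by 0.0076 after quantile normalization. The claudins lie on both sides.

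**Figure D2:**
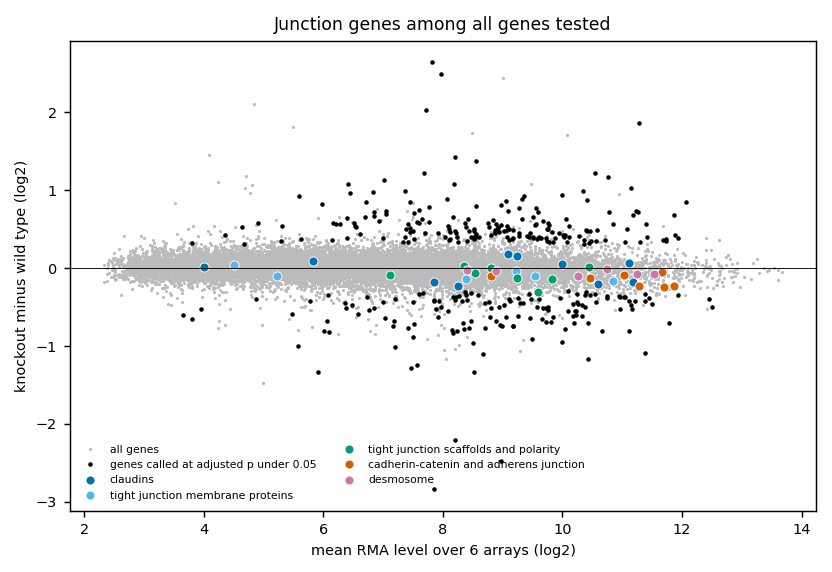
Difference between knockout and wild type against the mean level over 6 arrays, both on the log2 scale, for all 19936 genes (grey), the 325 called genes (black) and the junction genes (coloured by class). The junction genes stay between -0.30 and 0.18, inside the cloud of genes that were not called.

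The promoters of the members were read to show what they share in sequence. RefSeq windows of build GRCm38.p6, from 250 bases before to 50 bases after a transcription start, were found for 25 of the 37 members. The 12 members without one were Cldn8, Cldn23, Marveld3, Jam2, Jam3, Cdh1, Cdh17, Ctnna1, Dsg2, Dsc2, Pkp2 and Pkp3. The E-box CAGGTG, a sequence bound by repressors of epithelial genes such as Snail and ZEB proteins and also by other factors, was searched on both strands. It was present in at least 1 window of 13 of the 25 members (52.0%), against 22.2% of the 15561 tested genes with a window and 21.6% of those at or above the median level. By window, it was in 16 of 35 member windows (45.7%) against 20.2% of all 32851 windows. The 13 were Cldn3, Cldn4, Cldn7, Ocln, Marveld2, F11r, Tjp3, Pard3, Pard6b, Magi1, Nectin2, Epcam and Dsp.

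The windows below are shown because these 4 genes were among the 9 with an unadjusted p under 0.05 and, with Cldn12, are the ones of those 9 that have a window. The windows of Cldn12 held no E-box and are not printed. Each is written 5′ to 3′ on the strand of the gene, with the E-box in capitals (CAGGTG, or CACCTG where it lies on the other strand). Epcam encodes a cell adhesion protein of epithelia, Cldn7 its claudin partner, F11r the junctional adhesion molecule JAM-A, and Magi3 a scaffold without an E-box in this window.
Epcam, chr17:87635729-87636028, + strand: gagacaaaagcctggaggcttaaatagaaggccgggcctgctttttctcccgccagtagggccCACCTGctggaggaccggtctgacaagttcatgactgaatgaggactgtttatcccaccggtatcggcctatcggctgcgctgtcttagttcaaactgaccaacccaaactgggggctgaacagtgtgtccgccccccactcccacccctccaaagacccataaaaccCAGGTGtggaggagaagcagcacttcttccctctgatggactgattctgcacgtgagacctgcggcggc
Cldn7, chr11:69965171-69965470, + strand: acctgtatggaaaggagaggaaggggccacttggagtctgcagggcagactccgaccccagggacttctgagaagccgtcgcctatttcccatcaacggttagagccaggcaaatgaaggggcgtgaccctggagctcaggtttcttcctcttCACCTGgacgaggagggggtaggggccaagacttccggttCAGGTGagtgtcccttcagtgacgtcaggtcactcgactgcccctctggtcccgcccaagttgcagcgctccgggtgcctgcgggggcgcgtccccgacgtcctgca
F11r, chr1:171437311-171437610, + strand: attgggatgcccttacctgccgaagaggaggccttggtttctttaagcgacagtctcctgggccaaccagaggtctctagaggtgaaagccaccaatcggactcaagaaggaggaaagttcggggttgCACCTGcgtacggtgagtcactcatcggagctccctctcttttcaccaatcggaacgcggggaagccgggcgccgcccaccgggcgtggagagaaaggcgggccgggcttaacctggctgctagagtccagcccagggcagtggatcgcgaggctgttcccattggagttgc
Magi3, chr3:104220357-104220656, - strand: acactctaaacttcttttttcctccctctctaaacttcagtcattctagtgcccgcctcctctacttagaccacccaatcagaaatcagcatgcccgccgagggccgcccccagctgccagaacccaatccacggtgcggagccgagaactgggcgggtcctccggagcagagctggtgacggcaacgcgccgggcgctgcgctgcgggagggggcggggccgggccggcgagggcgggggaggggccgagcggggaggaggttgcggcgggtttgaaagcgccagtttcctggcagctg
In Epcam the matches begin 187 and 19 bases before the start, in Cldn7 97 and 57 bases before it, and in F11r 122 bases before it. The window of Cldn7 is that of the downstream of 2 annotated starts, and the upstream window held no match. The core TTTAT of sites bound by CDX proteins was in 10 of the 25 members (40.0%), against 37.7% of tested genes and 29.3% of the brighter ones, and by window in 31.4% of member windows against 40.0% of all windows. The site AACCNGTT of Grainyhead-like factors was in 2 (Cgn and Cldn5, 8.0%), against 2.27% of tested genes and 2.21% of the brighter ones, and by window in 5.71% against 2.09%. Both were searched on both strands, none of the motifs contains another, and a match is a description of the sequence only.

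Claudins differed in both directions. Of 10, 4 were negative and 6 positive, with a median of 0.034 (-0.010 without wild type array 2). At an unadjusted p under 0.05, 3 were lower (30.0%, against 5.62% of all genes and 8.83% of the brighter ones). Another was higher (10.0%, against 7.72% and 9.37%). Without Cldn1 and Cldn5, which read below the median of all genes, the median of the other 8 was -0.058. Cldn7, a claudin that binds EpCAM, read 11.25, 11.28 and 11.29 on the wild type arrays and 11.05, 11.12 and 11.13 on the knockout arrays. Its groups did not overlap, and the difference was -0.17 ± 0.057 (adjusted p = 0.24). Cldn8, a sealing claudin of the distal colon and kidney, read 10.57, 10.82 and 10.71 in wild type and 10.51, 10.47 and 10.51 in the knockout. The groups did not overlap, though wild type array 1 came close to the knockout arrays, and the difference was -0.20 ± 0.074 (adjusted p = 0.28). Cldn23, a claudin of differentiated surface colonocytes, read 7.99, 7.94 and 7.90 in wild type and 7.82, 7.76 and 7.73 in the knockout. Its difference was -0.17 ± 0.060 (adjusted p = 0.25), with every knockout array below every wild type array.

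Cldn12 was the claudin with a low p in the other direction. It lacks the PDZ-binding end of most claudins, and read 9.13, 9.11 and 9.26 in wild type and 9.30, 9.33 and 9.34 in the knockout. The groups did not overlap, and the difference was 0.16 ± 0.063 (adjusted p = 0.31). Cldn2, the cation channel of leaky epithelia, read 8.42, 8.51 and 8.18 in wild type and 8.30, 8.34 and 7.77 in the knockout. Knockout array 3 alone lay below every wild type array, and the difference of -0.23 ± 0.15 (adjusted p = 0.58) became -0.053 without it. Array 3 was the lowest of its group in both genotypes. With the replicate number as a block, the SE was 0.078 and the unadjusted limma p was 0.022 (adjusted p = 0.27). The labels do not say that these numbers pair arrays. Without the block, the 95% interval of Cldn2 ran from -0.58 to 0.12, the widest among the members.

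The remaining claudins had unadjusted p values above 0.16. Cldn4, a sealing claudin, varied in wild type, with 8.89, 9.35 and 8.72 against 9.17, 9.20 and 9.15 in the knockout, and its difference was 0.18 ± 0.14. That value was 0.37 without wild type array 2 and 0.051 without wild type array 3. Cldn3, another sealing claudin, differed by 0.066 ± 0.057 and Cldn15, a channel-forming one, by 0.056 ± 0.060 (0.030 without knockout array 1 and 0.086 without knockout array 3). Cldn5, best known from endothelium, differed by 0.095 ± 0.063 at a level of 5.77 ± 0.068 in wild type, and by 0.057 without wild type array 2. The endothelial markers beside it numbered 10, of which 1 reached the median level, with a summed unlogged level of 454 to 491 on wild type arrays and 485 to 525 on knockout arrays. Their part in the Cldn5 value was not tested. Cldn1 read 4.03, 3.83 and 4.14 in wild type and differed by 0.012 ± 0.083, a value that turned to -0.013 after quantile normalization. No detection calls were used here, so whether the dim members stood above background was not determined.

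**Figure D3:**
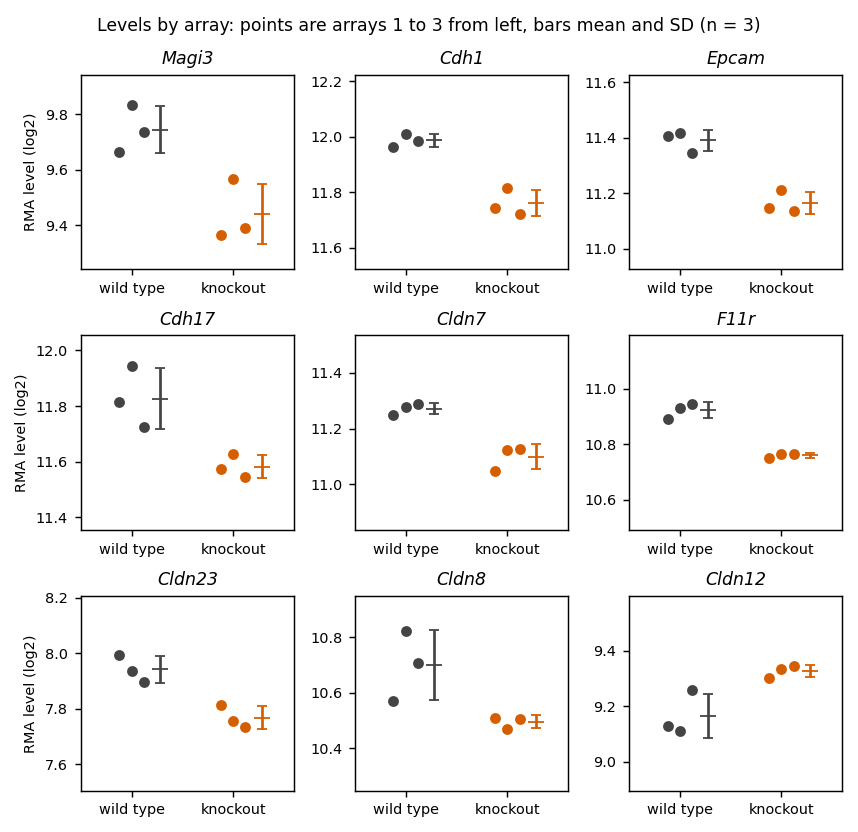
Level on each array (RMA log2 on the y axis) of the 9 junction genes with an unadjusted p under 0.05, ordered by p, with wild type in grey, knockout in orange, and bars for mean and SD of 3 arrays. Every panel spans the same range of log2 units. In all 9 panels the groups do not overlap, with the knockout below in 8 and above in Cldn12. The 9 genes were picked by p in these same arrays, so the separation follows largely from their selection. Of all genes, 7.98% had every knockout array below and 11.4% every knockout array above wild type.

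The other tight junction membrane proteins had a median of -0.10 (-0.054 without knockout array 1). Of the 6, 5 were negative (83.3%, against 42.8% of all genes and 48.9% of the brighter ones). At an unadjusted p under 0.05, 1 was lower (16.7%, against 5.62% and 8.83%). F11r, whose product JAM-A recruits the polarity complex, read 10.89, 10.93 and 10.95 in wild type and 10.75, 10.77 and 10.77 in the knockout. These were the tightest knockout values among the 9 genes (SD 0.0079), and the difference was -0.16 ± 0.055 (adjusted p = 0.24). Ocln, which encodes occludin, read 9.51, 9.62 and 9.64 in wild type and 9.47, 9.46 and 9.52 in the knockout. Knockout array 3 lay just above wild type array 1, so the groups overlapped, and the difference was -0.11 ± 0.062 (adjusted p = 0.53). Marveld2, which encodes tricellulin of the corners where 3 cells meet, read 8.35, 8.59 and 8.46 in wild type and 8.39, 8.41 and 8.17 in the knockout. The groups overlapped, with a difference of -0.14 ± 0.089 (adjusted p = 0.55) that was -0.083 without wild type array 2 and -0.068 without knockout array 3. Marveld3, its paralog, differed by -0.041 ± 0.059.

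Jam2 and Jam3 are adhesion molecules known mainly from endothelium and other non-epithelial cells, and both read below the median of all genes. Jam2 read 5.30, 5.30 and 5.21 in wild type and 4.98, 5.20 and 5.32 in the knockout, whose arrays spread on either side of wild type. The difference was -0.10 ± 0.090 (adjusted p = 0.70), and that of Jam3 was 0.044 ± 0.077. With 1 array left out, Jam2 was -0.0087 without knockout array 1 and -0.18 without knockout array 3, and Jam3 ranged from 0.0064 without knockout array 1 to 0.12 without knockout array 2. The endothelial markers given beside Cldn5 apply here too.

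Among the 8 scaffolds and polarity genes the median was -0.070 (-0.046 without wild type array 3 and -0.027 without knockout array 1). Of the 8, 6 were negative (75.0%, against 42.8% of all genes and 48.9% of the brighter ones). At an unadjusted p under 0.05, 1 was lower (12.5%, against 5.62% and 8.83%). Magi3, a membrane-associated scaffold with PDZ domains, read 9.66, 9.83 and 9.73 in wild type and 9.37, 9.57 and 9.39 in the knockout. The groups did not overlap, and its difference of -0.30 ± 0.077, or 0.81 times the wild type level, was the largest of the 37 in size (adjusted p = 0.12). The adjusted p was 0.034 with the intensity trend and robust prior and 0.049 without the dimmest 50% of genes. Its paralog Magi1 differed by -0.0015 ± 0.055, with a 95% interval from -0.13 to 0.13. The difference between the paralogs was not tested.

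Tjp1, which encodes ZO-1, the scaffold that binds claudins and actin, read 9.89, 9.87 and 9.89 in wild type and 9.71, 9.83 and 9.71 in the knockout. Wild type values were within an SD of 0.0090, all knockout arrays lay below them, and the difference was -0.13 ± 0.060 (adjusted p = 0.40). Tjp3, which encodes ZO-3, differed by 0.013 ± 0.057. Cgn, which encodes cingulin, a linker of the junction to actomyosin, read 9.32, 9.33 and 9.29 in wild type and 9.002, 9.33 and 9.22 in the knockout. Knockout array 2 lay above every wild type array and knockout array 1 far below, with a difference of -0.13 ± 0.086 (adjusted p = 0.59). It was -0.036 without knockout array 1 and -0.20 without knockout array 2. Cgnl1, its paralog paracingulin, read 7.11, 7.14 and 7.24 in wild type and 7.10, 7.08 and 7.07 in the knockout, and the difference was -0.081 ± 0.061 (adjusted p = 0.64). The groups of Cgnl1 did not overlap, but wild type array 1 and knockout array 1 nearly met, and the difference was -0.041 without wild type array 3. The polarity genes Pard3 and Pard6b, whose products set up the apical domain with atypical protein kinase C, differed by -0.059 ± 0.062 and 0.023 ± 0.075.

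The cadherin-catenin and adherens junction class held 3 of the 4 lowest unadjusted p values among the members, those of Cdh1, Epcam and Cdh17. Of its 7 genes, Epcam and Nectin2 encode neither a cadherin nor a catenin. All 7 genes were negative, against 42.8% of all genes and 48.9% of the brighter ones, with a median of -0.13. In 5 of them (71.4%) every knockout array lay below every wild type array, against 7.98% of all genes and 12.7% of the brighter ones. Cdh1, which encodes E-cadherin, read 11.96, 12.01 and 11.99 in wild type and 11.75, 11.81 and 11.72 in the knockout. The groups did not overlap, and the difference was -0.23 ± 0.058, or 0.855 times the wild type level (adjusted p = 0.12). Epcam read 11.41, 11.42 and 11.35 in wild type and 11.15, 11.21 and 11.14 in the knockout. Its groups did not overlap either, with a difference of -0.23 ± 0.058 (adjusted p = 0.12). Cdh17, which encodes the intestinal LI-cadherin, read 11.81, 11.94 and 11.72 in wild type and 11.58, 11.63 and 11.55 in the knockout. Wild type array 3 came closest to the knockout arrays, and the difference was -0.24 ± 0.072 (adjusted p = 0.17).

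With each array left out in turn these 3 genes and Magi3, alone among the members, kept an unadjusted p under 0.05 in 6 of 6 fits. Of all genes, 10.7% to 13.5% had such a p in each single fit, and the share with it in all 6 was not counted. Differences ran from -0.25 to -0.21 for Cdh1 and for Epcam and from -0.30 to -0.19 for Cdh17. The adjusted p with the intensity trend and robust prior was 0.010 for Cdh1, 0.015 for Epcam and 0.037 for Cdh17. Without the dimmest 50% of genes it was 0.038 for Cdh1 and 0.039 for Epcam.

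The catenins, which connect cadherins to actin, differed less than the cadherins in value. Ctnna1, which encodes α-catenin, read 10.47, 10.53 and 10.60 in wild type and 10.37, 10.40 and 10.45 in the knockout. The groups did not overlap, and the difference was -0.13 ± 0.062 (adjusted p = 0.44). Ctnnb1, which encodes β-catenin of both the junction and the Wnt pathway, read 11.73, 11.73 and 11.63 in wild type and 11.64, 11.68 and 11.62 in the knockout. The groups overlapped, and the difference was -0.053 ± 0.060 (adjusted p = 0.78), with a 95% interval from -0.19 to 0.085 and a value of -0.085 without wild type array 3. Ctnnd1, which encodes p120-catenin, a stabiliser of cadherins at the membrane, differed by -0.084 ± 0.058, and Nectin2, an adhesion protein linked to actin through afadin, by -0.096 ± 0.070. No test of the cadherins against the catenins was made.

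Desmosome genes had differences close to 0. All 6 were negative, against 42.8% of all genes and 48.9% of the brighter ones. They lay between -0.11 and -0.0078, with a median of -0.050 (-0.077 without knockout array 2). None had an unadjusted p under 0.05, against 13.3% of all genes and 18.2% of the brighter ones. The sign of Dsg2 turned after quantile normalization (0.0076), and those of Dsg2, Pkp2 and Pkp3 turned in some fits that left out 1 array. Their 95% intervals all lay between -0.25 and 0.15. Dsg2, the desmosomal cadherin of simple epithelia, read 10.80, 10.74 and 10.69 in wild type and 10.68, 10.83 and 10.70 in the knockout. The groups overlapped fully, and the difference was -0.0078 ± 0.068 (adjusted p = 0.98). Dsc2, its desmocollin partner, read 10.33, 10.37 and 10.25 in wild type and 10.21, 10.25 and 10.18 in the knockout. The groups met at 10.25, knockout array 2 being just below wild type array 3, and the difference was -0.11 ± 0.061 (adjusted p = 0.52).

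The plaque genes of the desmosome gave a similar picture. Dsp, which encodes desmoplakin, the link to keratin, read 11.30, 11.29 and 11.27 in wild type and 11.16, 11.29 and 11.19 in the knockout, a difference of -0.074 ± 0.060 (adjusted p = 0.67; -0.11 without knockout array 2). Jup, which encodes plakoglobin of desmosomes and adherens junctions, read 11.54, 11.62 and 11.54 in wild type and 11.45, 11.55 and 11.49 in the knockout, a difference of -0.070 ± 0.061 (adjusted p = 0.69). In Dsp and in Jup knockout array 2 lay within the wild type range and the other knockout arrays below it. Pkp2, a plakophilin, read 8.90, 8.90 and 8.90 in wild type and 8.95, 8.86 and 8.81 in the knockout, on either side of wild type, with a difference of -0.030 ± 0.061 (adjusted p = 0.89). Pkp3 differed by -0.029 ± 0.068.

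The classes were also set side by side on each array, as the mean deviation of their genes from each gene's mean over 6 arrays. For the cadherin-catenin class the wild type arrays stood at 0.060, 0.12 and 0.047 and the knockout arrays at -0.10, -0.031 and -0.092. For the tight junction membrane proteins other than claudins they stood at 0.014, 0.059 and 0.055 against -0.065, -0.042 and -0.020. In these 2 classes the groups did not overlap. The scaffolds met at 0.012, the value of wild type array 1 and of knockout array 2, and the claudins and desmosome genes overlapped. Over all 37 members the wild type arrays stood at 0.023, 0.062 and 0.028 and the knockout arrays at -0.059, -0.0021 and -0.051. Over all genes, whose mean is held near 0 by normalization between arrays, the wild type arrays lay between -0.026 and 0.0020 and the knockout arrays between 0.0012 and 0.017.

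**Figure D4:**
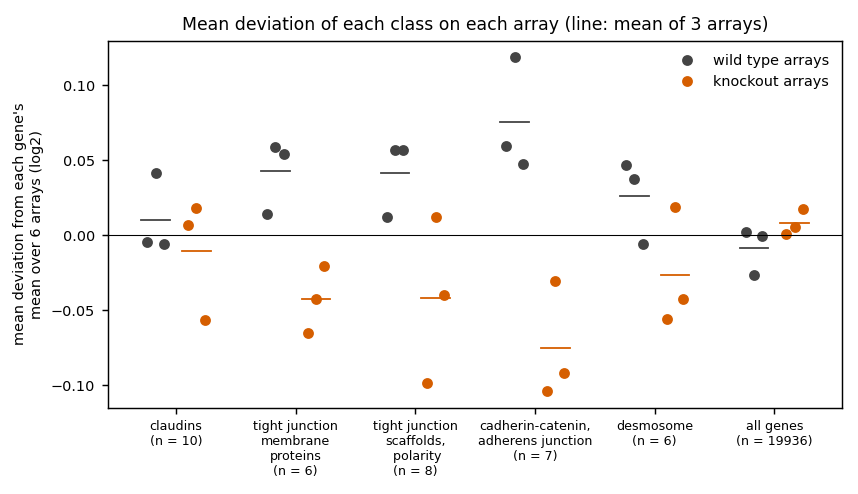
Mean deviation of the genes of each class from each gene's mean over 6 arrays, on the log2 scale, for 3 wild type (grey) and 3 knockout (orange) arrays, with a line at the mean of the 3 arrays. The cadherin-catenin and adherens junction class has the widest separation, with wild type means of 0.047 to 0.12 and knockout means of -0.10 to -0.031. All genes together, being normalized between arrays, lie near 0.

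Further genes of the junctions, 83 in 7 lists, had a median difference of 0.0040, and limma called 0 of them. Of these, 8 were lower (9.64%) and 5 higher (6.02%) at an unadjusted p under 0.05. The shares were 5.62% and 7.72% of all genes, and 8.83% and 9.37% of the brighter ones. With the intensity trend and robust prior 4 passed, Lsr, Mpp5, Vcl and Spint2, and without the dimmest 50% of genes 4 passed, Marveld1, Mpp5, Vcl and Spint2. None of the 12 other claudins reached the median level of all genes, and none had an unadjusted p under 0.05.

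Among 23 other tight junction genes 3 were lower (13.0%) and 2 higher (8.7%) at an unadjusted p under 0.05. The shares were 5.62% and 7.72% of all genes, and 8.83% and 9.37% of the brighter ones. Mpp5, which encodes PALS1 of the Crumbs polarity complex, read 8.45, 8.48 and 8.39 in wild type and 8.16, 8.23 and 8.02 in the knockout, a difference of -0.31 ± 0.071 (adjusted p = 0.088). Lsr, which encodes angulin-1, the protein that brings tricellulin to cell corners, read 9.23, 9.32 and 9.48 in wild type and 9.07, 8.97 and 9.08 in the knockout, a difference of -0.30 ± 0.079 (adjusted p = 0.13). In Mpp5 and in Lsr the groups did not overlap. Marveld1, which shares the MARVEL domain of occludin, differed by 0.21 ± 0.055 (adjusted p = 0.13), with every knockout array above every wild type array.

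Of 14 other adherens junction genes 2 had an unadjusted p under 0.05 (14.3%, against 13.3% of all genes and 18.2% of the brighter ones). Vcl, which encodes the actin-binding vinculin, differed by -0.23 ± 0.061 (adjusted p = 0.14) and the nectin gene Nectin3 by -0.15 ± 0.060 (adjusted p = 0.31). Among 11 other desmosome and plakin genes 2 were lower (18.2%) and 2 higher (18.2%) at that threshold. The shares were 5.62% and 7.72% of all genes, and 8.83% and 9.37% of the brighter ones. The plakophilin gene Pkp1 differed by 0.21 ± 0.063 (adjusted p = 0.17), and Pof1b, an actin-binding junction gene, by -0.17 ± 0.057 (adjusted p = 0.24). Perp, a desmosomal p53 target, differed by -0.17 ± 0.065 (adjusted p = 0.29), and the desmoglein gene Dsg1c by 0.18 ± 0.071 (adjusted p = 0.32), at a wild type level of 3.62. None of the 5 keratin genes had an unadjusted p under 0.05, and 1 of the 5 was negative. Krt7 differed by 0.20 ± 0.086 and Krt18 by 0.18 ± 0.081, with unadjusted limma p values of 0.051 and 0.056. Krt8, the main partner of Krt18 in simple epithelia, differed by 0.0063 ± 0.056.

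The membrane protease list touches EpCAM directly, since the serine protease matriptase cleaves EpCAM and is held in check by the inhibitor encoded by Spint2. Loss of EPCAM or of SPINT2 causes congenital tufting enteropathy in people. Spint2 read 11.93, 11.96 and 11.87 in wild type and 11.61, 11.69 and 11.65 in the knockout. Its groups were apart, and the difference of -0.27 ± 0.059 had the lowest adjusted p of the junction genes examined here (0.079). St14, which encodes matriptase, differed by -0.12 ± 0.059 (adjusted p = 0.43), and no other gene of the 5 had an unadjusted p under 0.05.

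Of 13 transcription regulators of junction genes 1 had an unadjusted p under 0.05 (7.69%, against 13.3% of all genes and 18.2% of the brighter ones). Cdx2, an intestinal homeobox factor, read 10.01, 9.90 and 9.71 in wild type and 10.17, 10.23 and 10.07 in the knockout, all above wild type, with a difference of 0.28 ± 0.088 (adjusted p = 0.20). Of the E-box repressors, Snai1 differed by 0.058 ± 0.088, Snai2 by 0.037 ± 0.096 and Twist1 by -0.028 ± 0.11. Zeb1 differed by -0.017 ± 0.094 and Zeb2 by 0.064 ± 0.077. Their wild type levels were 6.61 (Snai1), 4.77 (Snai2), 6.01 (Twist1), 5.24 ± 0.10 (Zeb1) and 4.96 (Zeb2). All of these repressors had means over the arrays below the median of all genes, Snai1 only just. Hnf4a, a nuclear receptor of intestinal epithelium, differed by -0.091 ± 0.066 and Grhl2, a Grainyhead-like factor, by -0.058 ± 0.059.

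Epithelial and crypt markers were set beside the junction genes. The summed unlogged level of the 10 epithelial markers was 60880 to 66628 on wild type and 61398 to 64446 on knockout arrays, so the groups overlapped. Array 2 had the highest level of its group for 7 of these 10 markers in wild type and for 9 in the knockout, and the part of this in the junction values was not tested. For the 5 crypt and cycling markers the summed level was 1778 to 1879 against 1532 to 1989, a sum in which Mki67 and Top2a, the brightest, weigh most. All 5 of these markers were negative, against 42.8% of all genes and 48.9% of the brighter ones. Their median was -0.065, and none had an unadjusted p under 0.05. Slc26a3, the chloride exchanger of surface colonocytes, differed by -0.36 ± 0.10 (adjusted p = 0.16), with every knockout array below every wild type array, and its part in the junction values was not tested.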

How the data were processed

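The authors deposited log2 expression values processed with RMA (background correction, scaling between arrays, 1 value per probe set), according to the submitters' processing notes. The range of the values shows the log2 scale, and the version of RMA is not given in the sources used here. Of 35556 probe sets, 21789 named 1 gene. The RefSeq gene table gave current symbols, and the probe set with the highest mean stood for each of 19936 genes. The genotypes were set against each other with the limma package (version 3.58.1, R 4.3.3; lmFit, eBayes) in two-sided tests with Benjamini-Hochberg adjustment over all genes. Called means an adjusted p under 0.05, and intervals are at 95%. Since the labels name no separate animals, p-values reflect only how these arrays vary, and their number limits the precision.

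The members and gene lists were chosen with earlier results of these data known. Every array is given for Cldn2, Cldn7, Ocln, Tjp1, Cdh1, Epcam, Ctnnb1, Dsg2 and Jup, for members called, and for the 4 members of each class with the smallest p, and other lists give up to 3 genes with an unadjusted p under 0.05. Further genes were named after their values were seen. In simulated data with 200 changed genes among 19936, the test found 88% of changes of 0.5 and 99% of changes of 1 (log2). Of the genes it called, 8.33% were unchanged ones. The largest difference among the members was -0.30, and changes of that size or smaller were not simulated. Recovery of such changes is therefore not known. Alternatives were a replicate block, quantile normalization, median centring, a filter on dim genes, a variance trend with robust prior, array weights, the mean of probe sets, and each array left out. Tables were joined in Python 3.11.15 with pandas 2.3.3. No batch information was used here.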

Additional observations from a re-analysis of the deposited data

How the results depend on the processing

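Of the 37 junction genes, 30 kept the sign of their difference under every alternative that measured them, among them all 9 with an unadjusted p under 0.05. The other 7 (Cldn1, Tjp3, Pard6b, Magi1, Dsg2, Pkp2 and Pkp3) had differences between -0.030 and 0.023. Those 9 were picked in the same arrays for a large difference relative to its SE, so their kept sign follows largely from their selection. The replicate block, the variance trend and the filter on dim genes leave each difference unchanged. The share of all genes that kept their sign was not counted. The count of members called was 0 except with the intensity trend and robust prior (4) and without the dimmest 50% of genes (3), where the other junction genes called numbered 4 and 4 and all genes called 635 and 598 against 325. With each array left out in turn, all genes called ranged from 69 to 303, the members called stayed at 0, and the Sel1l difference ranged from -0.87 to -0.67. The median of the members ranged from -0.096 to -0.050 in these fits and was -0.053 after quantile normalization. The claudin median ranged from -0.010 to 0.058 and was -0.058 without the dimmest 50% of genes, which leaves out Cldn1 and Cldn5. The median of the tight junction membrane proteins ranged from -0.12 to -0.054. Cldn1 differed by -0.072 without wild type array 2. The cause of these shifts was not tested, apart from the fewer genes of the filter.

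The replicate numbers in the labels are not said to pair arrays, and deviations of same-numbered arrays correlated at -0.10, 0.15 and 0.15 over genes, with 4 of 6 arrays correlating best with their own number. With the replicate number as a block, 217 genes and 0 members were called, and 10 members had an unadjusted p under 0.05. The median SE among the members was 0.062, and the number of arrays limits what can be told from 0.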

Other observations

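Within the knockout arrays, array 2 had the highest level of Sel1l, at 9.06 against 8.70 and 8.66, and it also had the highest level of its group for 20 of the 37 junction genes, against 8 and 9 for the other arrays. Knockout array 2 was also highest for 9 of the 10 epithelial markers, for 41.8% of the brighter genes and for 6775 of all 19936 genes, against 54.1% of the members. Its mean deviation over the 37 junction genes was -0.0021, against -0.059 and -0.051. Wild type array 2 likewise had the highest Sel1l of its group, at 9.67 against 9.45 and 9.54. It was the highest for 15 members (40.5%), against 9 and 13, for 7 of the 10 epithelial markers and for 37.6% of the brighter genes and 27.9% of all genes, and had the highest mean deviation over the members, at 0.062 against 0.023 and 0.028. The number of arrays allows no correlation, and the pattern was noticed after the values were seen.

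Cldn3 and Cldn4 each hold the E-box CAGGTG close to their start. In Cldn4 the matches begin 14 bases before the start and 11 bases after it, in Cldn3 31 bases after it, and in Ocln, Dsp and Marveld2 also within 50 bases after a start. Transcripts of these 5 genes, which have a match after a start, differed by 0.066 (Cldn3), 0.18 (Cldn4), -0.11 (Ocln), -0.074 (Dsp) and -0.14 (Marveld2). None of the 5 had an unadjusted p under 0.05. Matches also begin within 50 bases before a start in Epcam (19 bases), Tjp3 (17) and Magi1 (36). Their transcripts differed by -0.23, 0.013 and -0.0015, and Epcam had an unadjusted p of 0.0044 in limma. The genes were grouped after their values were seen.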
